A study of Homo sapiens with 9 samples.

Results

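The anoctamins and the lipid scramblases are membrane proteins that pass ions or phospholipids across the lipid bilayer. Here 10 genes of these families were followed, namely ANO1, ANO5, ANO6, ANO7, ANO8, ANO9 and ANO10 of the anoctamins, PLSCR1 and PLSCR3 of the phospholipid scramblases, and XKR8 of the XK-related scramblases. They are 10 of the 36753 genes in the deposited files, found through their Ensembl identifiers, and ANO9 was selected on its measured fall after both knockdowns. The samples were 9 libraries of PANC-1 cells, an established human pancreatic carcinoma line, taken 48 hours after transfection. There were 3 control libraries (headed siNC in the files), 3 libraries transfected with siSIRT6, a short interfering RNA against the histone deacylase SIRT6, and 3 with siKDM5C, one against the histone H3 lysine demethylase KDM5C. All groups shared the cell line and the time point, so each result describes that line. Separate cultures are not named for the 3 replicates of a group, so the tests measure a spread between libraries that may be technical.

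In a resting cell, flippases of the P4-ATPase family spend ATP to hold phosphatidylserine in the inner leaflet of the plasma membrane, and scramblases, once activated, let lipids pass both ways and bring phosphatidylserine to the surface. ANO6 is the calcium-dependent scramblase known from blood platelets, whereas XKR8 is switched on when caspases cut it during apoptosis. Other anoctamins conduct ions, and ANO1 is a calcium-activated chloride channel that is amplified in several carcinomas. In carcinoma cells, surface phosphatidylserine marks dying cells for uptake, and chloride and calcium flow bear on volume and movement.

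The values are FPKM, reads divided by gene length and library depth, and rest on 18201413 to 26910441 reads per library. The knockdowns were visible in their targets, with SIRT6 at 9.66% of its control mean after siSIRT6 and KDM5C at 19.6% after siKDM5C. All 5 epithelial markers listed (KRT7, KRT8, KRT18, KRT19 and EPCAM) were present, with a summed level of 1090 to 1140 FPKM in the controls, 1400 to 1510 after siSIRT6 and 695 to 856 after siKDM5C. KRT8 and KRT18 made up most of these sums. After siSIRT6, KRT19 went from 148 ± 3.58 to 302 ± 12.1 FPKM and KRT18 from 459 ± 12.9 to 589 ± 27. KRT8 went from 495 ± 14.7 to 556 ± 18.9 FPKM. EPCAM went with the sums there, from 0.988 ± 0.157 FPKM in the controls to 1.56 ± 0.302. KRT7 went against them, from 6.38 ± 0.738 to 4.4 ± 0.421 FPKM. After siKDM5C, EPCAM went against the sums, at 2.93 ± 0.521 FPKM. Of 15 markers of leukocytes, endothelium, fibroblasts, acinar and endocrine cells, 11 were found, and 10 of these stayed under 0.5 FPKM in all libraries. CD68, a lysosomal protein of macrophages that other cells also make, was the exception, at 45.3 ± 8.12 FPKM (SD, n = 3) in the controls, 35.9 ± 1.65 after siSIRT6 and 80.0 ± 10.6 after siKDM5C.

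Of the 10 genes, 7 reached 1 FPKM in at least 3 libraries and entered a limma-trend fit of 16135 genes on log2(FPKM + 1), with Benjamini-Hochberg adjusted p-values over all of them and a threshold of 0.05. ANO1, ANO5 and ANO7 did not reach that level. After siSIRT6, ANO8, ANO9 and XKR8 were called, each lower than control, where 50.8% of all genes were called in either direction and 26.9% were called lower. After siKDM5C, ANO9, PLSCR1 and XKR8 were called, also each lower, against 51.5% of all genes in either direction and 25.9% lower. The median difference of the 7 genes was −0.19 after siSIRT6 and −0.11 after siKDM5C, and that of all genes tested was −0.045 and −0.019. Between the knockdowns, ANO6, ANO9 and PLSCR1 were higher after siSIRT6 than after siKDM5C and ANO8 was lower, with 39.9% of all genes called, 18.6% higher and 21.3% lower, and the median difference was 0.18 for the 7 genes and −0.024 for all genes tested. Both comparisons with control use the same 3 control libraries. Since the list was drawn up with results of these samples in view, these counts are a description and say nothing particular about the family.

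**Figure D1:**
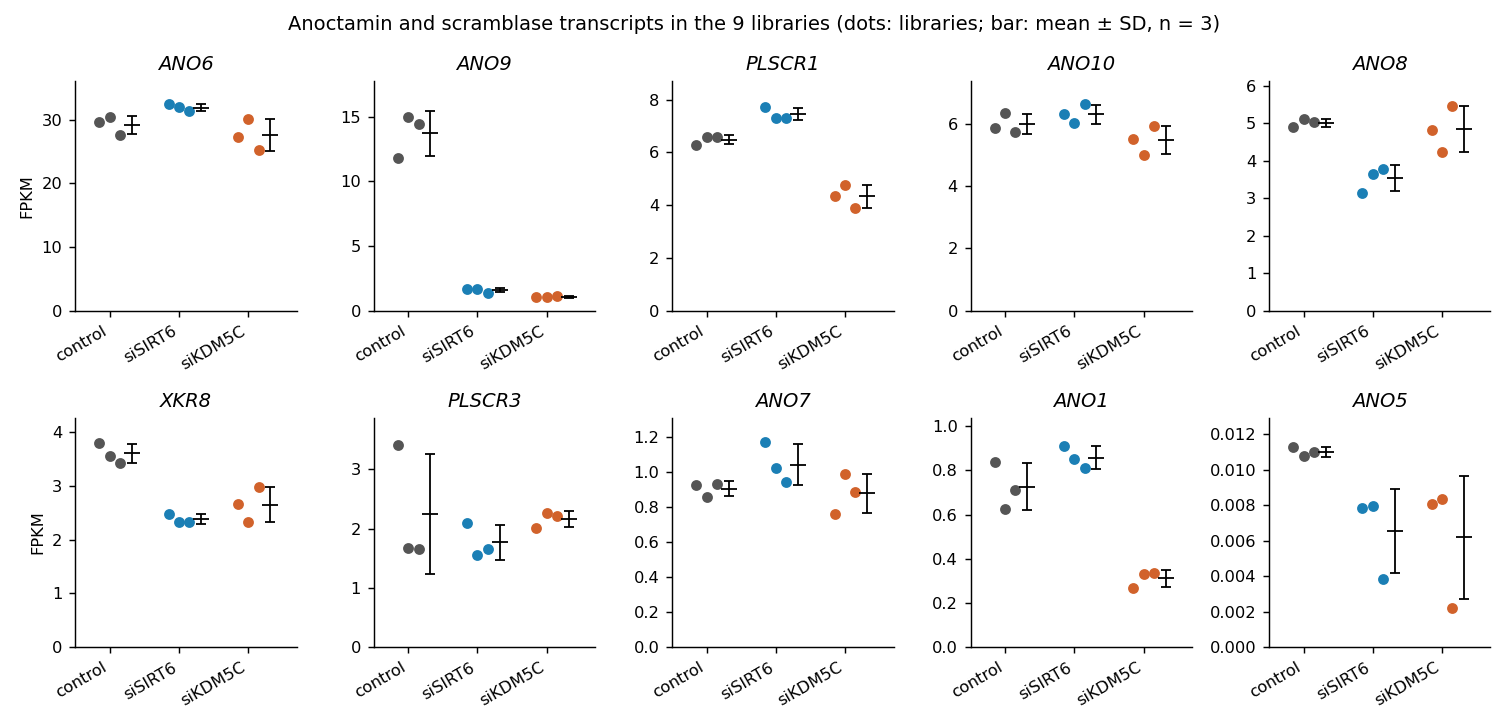
FPKM (vertical axes, each from 0) of the 10 genes in control, siSIRT6 and siKDM5C libraries, with 1 dot per library and a bar for the mean ± SD of 3. ANO9 dropped from between 11.8 and 15 FPKM in the controls to between 1.02 and 1.7 FPKM in the 6 knockdown libraries, while ANO6 stayed between 25.2 and 32.4 FPKM throughout.

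ANO9, a member of the anoctamin family reported to act in scrambling and in cation flow, gave by far the widest difference of the 10 genes. The gene (ENSG00000185101, GRCh38 chromosome 11, 417933 to 442011, minus strand) read 11.8, 15 and 14.4 FPKM in control replicates 1, 2 and 3. It read 1.7, 1.64 and 1.38 FPKM after siSIRT6 and 1.05, 1.02 and 1.16 FPKM after siKDM5C. Every control library was thus several times above every knockdown library, and the groups did not overlap. Libraries did not overlap with control for 65.5% of all genes after siSIRT6 and for 55.7% after siKDM5C. In whole reads, recovered from the steps of the FPKM values, the controls held 1328 to 1775 reads of ANO9, the siSIRT6 libraries 196 to 231 and the siKDM5C libraries 117 to 168. The means were 13.7 ± 1.72, 1.57 ± 0.169 and 1.08 ± 0.0766 FPKM (SD, n = 3), so 11.5% of the control level remained after siSIRT6 and 7.85% after siKDM5C. On the log2(FPKM + 1) scale the differences were −2.51 and −2.82 (SE 0.09 for each), given without a test because this fall chose the gene. A difference of at least 1 on that scale was met by 4.54% of all genes after siSIRT6 and by 4.26% after siKDM5C. In bulk RNA, fewer cells with the transcript and less of it per cell cannot be told apart.

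The comparison of the knockdowns was not the one that chose ANO9. All 3 siSIRT6 libraries lay above all 3 siKDM5C libraries, and the mean was 1.46 times as high. Libraries of these groups did not overlap for 51.7% of all genes. The difference was 0.31 (SE 0.09, 95% interval 0.1 to 0.52, limma adjusted p = 0.0279). Leaving out siSIRT6 replicate 1 gave 0.27 (adjusted p = 0.0919) and leaving out siSIRT6 replicate 2 gave 0.29 (0.0847), and neither passed. The same held on leaving out siKDM5C replicate 1 (0.3, with 0.0703) or siKDM5C replicate 2 (0.29, with 0.0623), and with no minimum level (adjusted p = 0.0644). A small RNA pseudogene, RN7SL838P, lies within ANO9 on the same strand over 295 bases and held 0 to 0.711 FPKM.

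**Figure D2:**
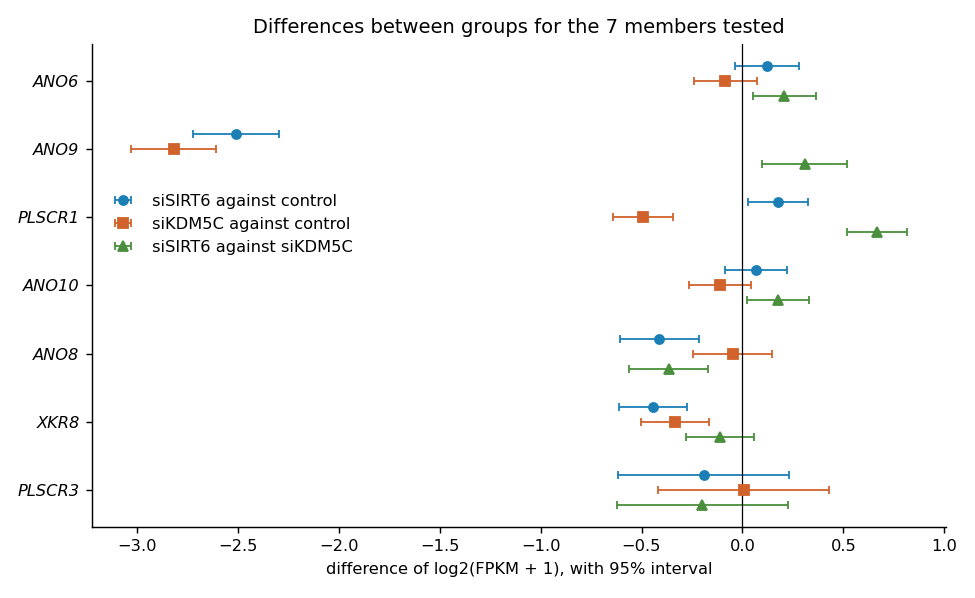
Differences of log2(FPKM + 1) between groups (horizontal axis) for the 7 genes tested, as points with 95% intervals from the limma fit. ANO9 lies at −2.51 and −2.82 against control, with the other 6 genes within 0.5 of control on either side.

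ANO6, ANO8 and ANO10 are the other anoctamins that were well above the minimum, and only ANO8 differed from control. ANO6 (ENSG00000177119, chromosome 12, 45215987 to 45440404, plus strand) was the most abundant of the 10 genes, at 29.7, 30.4 and 27.6 FPKM in the controls, 32.4, 32 and 31.3 after siSIRT6 and 27.3, 30.1 and 25.2 after siKDM5C. The siSIRT6 libraries all lay above the controls, by 0.12 (95% interval −0.04 to 0.28, limma adjusted p = 0.171), and the siKDM5C libraries overlapped them, with a difference of −0.09 (95% interval −0.24 to 0.07, adjusted p = 0.33). Neither passed the test, and the libraries of 65.5% of all genes did not overlap between siSIRT6 and control. The difference between the knockdowns, 0.21 (95% interval 0.05 to 0.36, adjusted p = 0.0413), was close to the threshold. It did not pass when control replicate 1 (adjusted p = 0.0618), control replicate 2 (0.0546), siSIRT6 replicate 1 (0.114), siSIRT6 replicate 2 (0.105), siSIRT6 replicate 3 (0.0839), siKDM5C replicate 1 (0.0917) or siKDM5C replicate 3 (0.0957) was left out, nor with no minimum level (0.0691) or in a fit of only the groups compared (0.066).

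ANO8 (ENSG00000074855, chromosome 19, 17323223 to 17334829, minus strand), which tethers the endoplasmic reticulum to the plasma membrane, read 4.9, 5.11 and 5.05 FPKM in the controls and 3.14, 3.66 and 3.79 after siSIRT6. No siSIRT6 library reached a control, and libraries did not overlap in this comparison for 65.5% of all genes. The mean of ANO8 was 70.3% of control. The fall was −0.41 (SE 0.09, limma adjusted p = 0.00409). After siKDM5C the libraries read 4.83, 4.24 and 5.46 FPKM, on both sides of the controls, with a difference of −0.05 (95% interval −0.24 to 0.15, adjusted p = 0.674). The test of the difference between the knockdowns passed, at −0.37 (95% interval −0.56 to −0.17, adjusted p = 0.00994). Both called differences of ANO8 passed in each alternative run. ANO8 shares 79 bases with DDA1 on the opposite strand.

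ANO10 (ENSG00000160746, chromosome 3, 43354859 to 43691594, minus strand), the anoctamin whose loss causes a recessive cerebellar ataxia, ran from 5.76 to 6.37 FPKM in the controls, from 6.04 to 6.64 after siSIRT6 and from 5.01 to 5.93 after siKDM5C. The ranges overlapped with control in both knockdowns, and the differences were 0.07 (limma adjusted p = 0.441) and −0.11 (adjusted p = 0.198). Between the knockdowns it was 0.18 (95% interval 0.02 to 0.33, adjusted p = 0.0659), which passed with median-of-ratios scaling (0.21, adjusted p = 0.0322) and on leaving out siKDM5C replicate 3 (0.23, at 0.0311). Its gene body overlaps SNRK over 69906 bases and ABHD5 over 1487 bases, both on the opposite strand.

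The channel gene ANO1 was the least abundant member with more than a few reads, and its libraries split by knockdown. ANO1 (ENSG00000131620, chromosome 11, 70078302 to 70189528, plus strand) read 0.839, 0.627 and 0.712 FPKM in the controls, 0.912, 0.851 and 0.809 after siSIRT6 and 0.27, 0.332 and 0.335 after siKDM5C. The siKDM5C libraries held 31 to 47 reads of it and all lay under the controls, which held 72 to 92. The siSIRT6 libraries overlapped the controls. Of all genes tested, 55.7% did not overlap between siKDM5C and control. The mean after siKDM5C was 43.0% of control. In a fit with no minimum level the difference was −0.39 (SE 0.06, limma adjusted p = 0.00296) after siKDM5C and 0.11 (adjusted p = 0.298) after siSIRT6. On log2 CPM (counts scaled by library depth) of the recovered reads, an alternative chosen after the data were seen because ANO1 falls under the FPKM minimum, they were −1.19 (SE 0.16, adjusted p = 5.21e-05) and 0.24 (adjusted p = 0.215). The knockdowns differed from each other by 0.5 (adjusted p = 0.00148) with no minimum and by 1.44 (adjusted p = 1.99e-05) on log2 CPM. An antisense transcript, ANO1-AS1, lies within ANO1 over 722 bases. It went from 1.7 ± 0.529 to 0.905 ± 0.168 FPKM after siKDM5C, a difference of −0.49 on 9 to 16 reads per siKDM5C library. ANO1-AS1 passed the minimum mostly through control and siSIRT6 libraries, where it was higher, so its p is not given. Reads of ANO1 and ANO1-AS1 cannot be told apart, since the sources do not state the strand used in counting. Among the epithelial markers, KRT8 (−0.94, adjusted p = 2.65e-05), KRT18 (−0.45, adjusted p = 0.00325) and KRT7 (−0.6, adjusted p = 0.0043) also fell after siKDM5C. KRT19 differed by 0.04 (adjusted p = 0.68). EPCAM read higher, at 2.93 ± 0.521 FPKM against 0.988 ± 0.157 in the controls. It passed the minimum mostly through knockdown libraries, where it was high, so its p is not given. The part of these markers in the difference of ANO1 was not tested.

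ANO7, first described in prostate, and ANO5, a muscle and bone gene, were low. ANO7 (ENSG00000146205, chromosome 2, 241188509 to 241225377, plus strand) lay between 0.763 and 1.17 FPKM in all libraries, at 0.905 ± 0.042 FPKM in the controls, 1.04 ± 0.117 after siSIRT6 and 0.878 ± 0.112 after siKDM5C (SD, n = 3). On log2 CPM its differences of 0.2 and −0.05 did not pass (limma adjusted p = 0.248 and 0.777). ANO5 (ENSG00000171714, chromosome 11, 21799934 to 22283357, plus strand) held 1 to 4 reads per library, so no difference was detectable at this depth. The 3 anoctamins outside the list, ANO2, ANO3 and ANO4, held 0 to 2 reads per library.

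Added together, the 7 anoctamins came to 55.6 ± 2.43 FPKM in the controls, 45.2 ± 0.351 after siSIRT6 and 40.1 ± 1.4 after siKDM5C (SD, n = 3). ANO9 made up 24.6 ± 2.48% of that sum in the controls, 3.48 ± 0.348% after siSIRT6 and 2.68 ± 0.274% after siKDM5C. The share of ANO6 went from 52.6 ± 2.19% to 70.5 ± 0.681% and 68.5 ± 3.75% with no call for its own level against control. These sums contain ANO9 and so carry the choice of that gene.

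**Figure D3:**
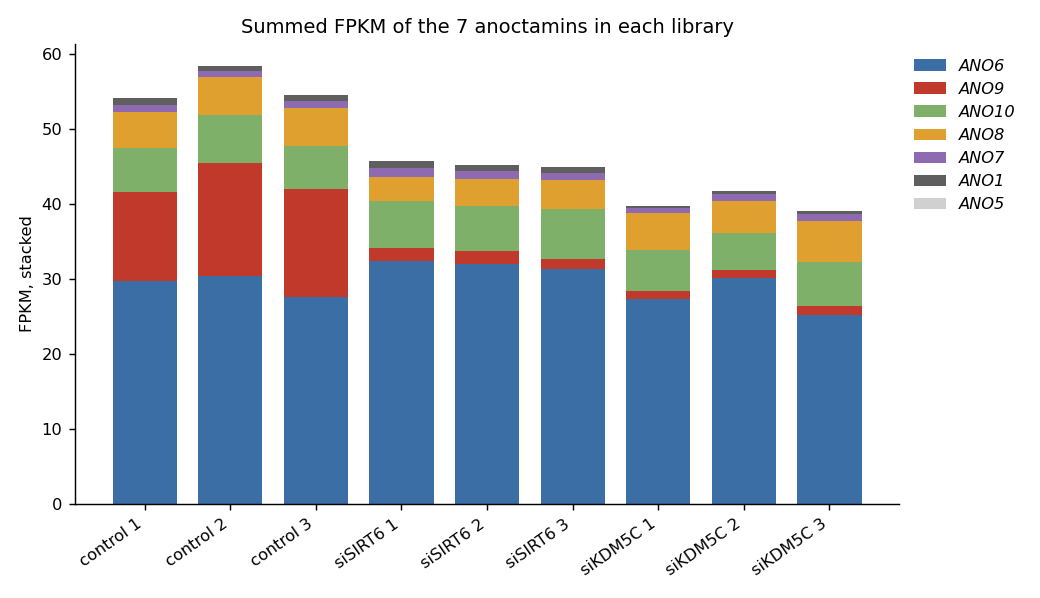
Summed FPKM of the 7 anoctamins (vertical axis) in each of the 9 libraries, stacked by gene. The ANO9 segment takes 21.8 to 26.4% of the bar in the controls and at most 3.73% in the knockdown libraries.

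Among the scramblases outside the anoctamins, PLSCR1 moved apart in the knockdowns and XKR8 fell in both. PLSCR1 encodes a palmitoylated calcium-binding protein that interferon induces and that acts in antiviral defence. It (ENSG00000188313, chromosome 3, 146515180 to 146544864, minus strand) read 6.29, 6.57 and 6.58 FPKM in the controls, 7.72, 7.3 and 7.32 after siSIRT6 and 4.35, 4.75 and 3.88 after siKDM5C. The 3 groups did not overlap, with siSIRT6 highest and siKDM5C lowest. Of all genes, 65.5% did not overlap between siSIRT6 and control, 55.7% between siKDM5C and control and 51.7% between the knockdowns. The fall after siKDM5C to 66.8% of control was −0.49 (SE 0.07, 95% interval −0.64 to −0.34, limma adjusted p = 0.000356). The mean after siSIRT6 was 115% of control, a difference of 0.18 (95% interval 0.03 to 0.32) that did not pass (adjusted p = 0.0517). It passed when siKDM5C replicate 2 (adjusted p = 0.0227) or its replicate 3 (0.0168) was left out, in a fit of only the 2 groups compared (adjusted p = 0.0126) and with median-of-ratios scaling (0.21, adjusted p = 0.0275). The direct difference between the knockdowns was 0.67 (95% interval 0.52 to 0.82, adjusted p = 0.000114), and passed in each alternative run. The summed epithelial markers, mostly KRT8 and KRT18, took the same order of groups, but EPCAM, KRT7 and KRT19 did not, and the part of these markers was not tested.

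A stretch near the RefSeq start of PLSCR1 is shown because of that interferon link. RefSeq promoter windows (GRCh38.p14) were matched for 8 of the 10 genes, not for ANO8 and ANO9. The 250 bases before the start were searched on both strands for GAAANNGAAA, the core of the interferon-stimulated response element. PLSCR1 was the 1 gene of the 8 with a match, and 3.02% of all 35116 windows hold one. The stretch is chr3:146544667-146544696 on the minus strand, with the match, 79 to 70 bases before the RefSeq start site, in capitals. That start lies downstream of the GENCODE gene start given above, so by GENCODE the stretch lies inside the gene.
PLSCR1: cgggaaccggGAAAAGGAAAccgtgttgtg
The match is a description of these letters and was not measured for binding.

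XKR8 (ENSG00000158156, chromosome 1, 27959462 to 27968096, plus strand), the caspase-activated scramblase, read 3.8, 3.56 and 3.43 FPKM in the controls, 2.48, 2.33 and 2.32 after siSIRT6 and 2.67, 2.32 and 2.97 after siKDM5C. Every knockdown library was below every control, at 66.0% and 73.7% of the control mean. The libraries of 65.5% of all genes did not overlap between siSIRT6 and control, and those of 55.7% did not between siKDM5C and control. The differences were −0.45 (SE 0.07, limma adjusted p = 0.00123) and −0.34 (SE 0.07, adjusted p = 0.00532), and both passed in each alternative that kept the gene. Between the knockdowns it was −0.11 (95% interval −0.28 to 0.06, adjusted p = 0.27). An unnamed antisense gene (ENSG00000227050) shares 732 bases with XKR8 and ran from 1.86 to 4.06 FPKM.

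PLSCR3 (ENSG00000187838, chromosome 17, 7389727 to 7394843, minus strand), a scramblase of mitochondria, read 3.41, 1.67 and 1.66 FPKM in the controls, 2.1, 1.55 and 1.65 after siSIRT6 and 2.01, 2.27 and 2.21 after siKDM5C. Control replicate 1 stood apart from the other 2 controls. The differences were −0.19 (95% interval −0.61 to 0.23, limma adjusted p = 0.411) and 0.01 (95% interval −0.42 to 0.43, adjusted p = 0.984), and without control replicate 1 the first was 0.05. Nearly all of PLSCR3, 5110 bases, is also annotated on the same strand as the readthrough gene TMEM256-PLSCR3, which in the controls read 4.1, 2.05 and 2.03 FPKM with replicate 1 again highest. The sources do not state how reads were divided between the 2, so the values of PLSCR3 are uncertain. PLSCR4, a related scramblase gene outside the list, fell from 2.22 ± 0.422 to 1.15 ± 0.237 FPKM after siSIRT6 (−0.58, adjusted p = 0.00962) and to 1.35 ± 0.383 after siKDM5C (−0.46, adjusted p = 0.0261, lost in 5 alternatives at up to 0.0892). It was the 1 gene tested of the 8 other scramblase family genes found.

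Ranked by FPKM, ANO6 came first in all 3 groups and ANO7, ANO1 and ANO5 last, in that order. FPKM is per gene length, but the annotation behind the lengths is not known and the values of PLSCR3 are uncertain. Close ranks are therefore not secure. ANO9 was the second gene in the controls, where its lowest library (11.8 FPKM) exceeded the highest of PLSCR1 (6.58 FPKM), and the seventh in both knockdowns. In the controls PLSCR1 and ANO10 overlapped, and ANO8, XKR8 and PLSCR3 followed, the last pair nearly touching (3.43 and 3.41 FPKM). After siSIRT6 the order was ANO6, PLSCR1, ANO10, ANO8 and XKR8, and then PLSCR3 and ANO9, which overlapped. After siKDM5C, ANO10 overlapped with ANO8, and ANO8 with PLSCR1, followed by XKR8, PLSCR3 and ANO9 with no overlap. ANO9 and ANO7 were close there, with 1.02 FPKM as the lowest of the first and 0.987 FPKM as the highest of the second.

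The neighbourhood of ANO9 near the end of the short arm of chromosome 11 was examined for the 7 other protein-coding genes with bodies within 100 kb. The genes on either side did not differ from control past the threshold. SIGIRR, an inhibitor of interleukin-1 and Toll-like receptor signalling whose start lies 24.6 kb away, read 17.0 ± 1.13 FPKM in the controls, 15.7 ± 0.76 after siSIRT6 and 14.9 ± 2.59 after siKDM5C (−0.1 and −0.19, limma adjusted p = 0.454 and 0.169). PTDSS2, a phosphatidylserine synthase that starts 6.3 kb away on the opposite strand, read 8.64 ± 0.422, 8.68 ± 1.42 and 6.85 ± 0.961 FPKM. Its difference after siKDM5C, −0.3 (95% interval −0.58 to −0.03, adjusted p = 0.0613), passed in 6 alternatives, among them those that left out siSIRT6 replicate 2 (0.0411), siSIRT6 replicate 3 (0.0388) or siKDM5C replicate 3 (0.0323). SIGIRR also passed after siKDM5C without siKDM5C replicate 3 (adjusted p = 0.0059).

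Farther out, the genes moved in different directions. IFITM3, an interferon-induced gene that blocks virus entry, fell from 107 ± 5.12 to 51.9 ± 0.935 FPKM after siSIRT6 (−1.03, limma adjusted p = 2.28e-05) and to 72.0 ± 8.74 after siKDM5C (−0.57, adjusted p = 0.000588). B4GALNT4, a glycosyltransferase, rose by 0.49 (adjusted p = 0.00188) and 0.66 (adjusted p = 0.00034). PKP3, a desmosome protein, rose after siKDM5C by 0.55 (adjusted p = 0.00518) and read 12.2 ± 0.459 FPKM after siSIRT6 against 12.1 ± 1.11 in the controls. HRAS, the small GTPase, fell after siKDM5C by 0.48 on the log2 scale (adjusted p = 0.00537), with 0.05 (adjusted p = 0.726) after siSIRT6. RNH1, the ribonuclease inhibitor, differed by −0.15 and −0.24 (adjusted p = 0.372 and 0.154), and passed in both comparisons without control replicate 3 (adjusted p = 0.0325 and 0.0106). Among these genes, a difference of at least 1 from control was met by ANO9 in both knockdowns and by IFITM3 after siSIRT6.

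**Figure D4:**
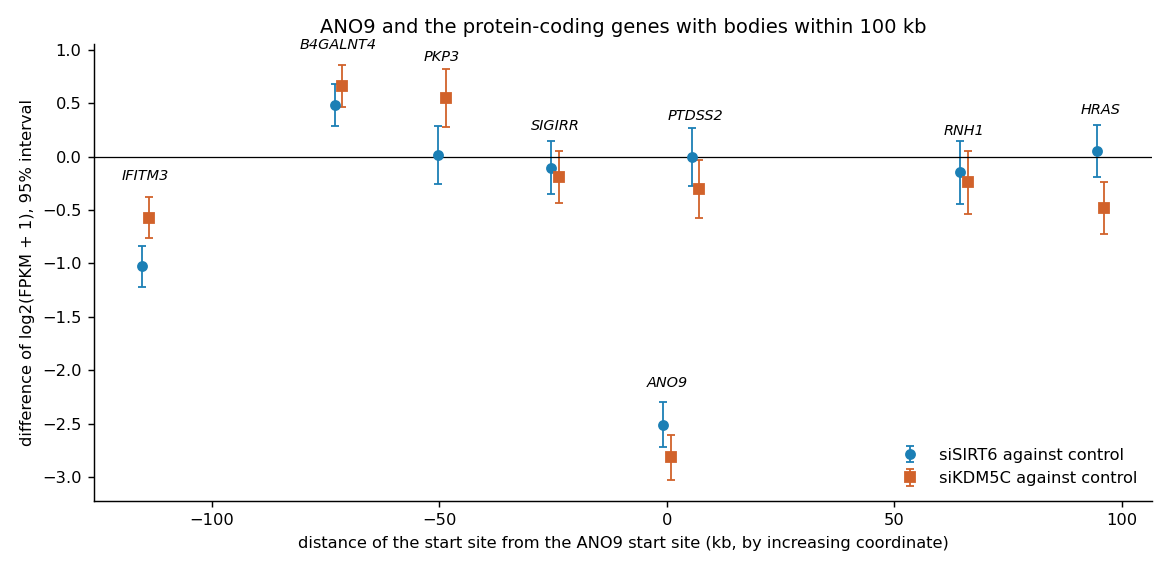
Difference of log2(FPKM + 1) from control, with 95% intervals, for ANO9 and the 7 protein-coding genes with bodies within 100 kb, against the distance of each start site from that of ANO9 in kb. ANO9 lies at −2.51 and −2.82, and its nearest neighbours SIGIRR and PTDSS2 lie between −0.3 and 0.

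The genes whose log2(FPKM + 1) followed ANO9 most closely over the 9 libraries were LIMASI (Pearson r = 0.998), TMEM265 and LTO1 (0.995 each), DAZAP1 (0.993) and CCND1 (0.991), out of 7444 genes with a mean of at least 5 FPKM. The 9 points of each gene fall into the same 3 groups and share their libraries, so r is a description only. LIMASI, annotated as an antisense RNA on chromosome 19 (10252268 to 10285108), went from 300 ± 15 FPKM in the controls to 84.4 ± 0.86 after siSIRT6 and 69 ± 4.44 after siKDM5C. The cyclin D1 gene CCND1 (chromosome 11, 69641087 to 69654474) read 205 ± 15.5, 48.7 ± 0.187 and 34.8 ± 1.25 FPKM. LTO1 (chromosome 11, 69653076 to 69675416), whose end overlaps that of CCND1 on the opposite strand, read 26.9 ± 0.375, 7.46 ± 0.0928 and 6.59 ± 0.488 FPKM, and the strand of counting is not known. TMEM265 and DAZAP1 changed less, to 45.8% and 66.1% of control after siSIRT6 and to 42.1% and 61.7% after siKDM5C. None of the 5 reached the 11.5% and 7.85% of ANO9.

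The flippases oppose the scramblases, and after siSIRT6 more of them rose than fell. Of 10 flippase genes tested, TMEM30A included, 6 rose, 1 fell and 3 did not pass after siSIRT6 (median 0.29, and −0.045 for all genes, of which 23.9% were called higher and 26.9% lower). ATP9A, an endosomal flippase, rose from 4.14 ± 0.251 to 8.15 ± 0.188 FPKM (0.83, limma adjusted p = 6.98e-06), and ATP11A, a flippase of the plasma membrane, from 5.18 ± 0.241 to 7.7 ± 0.23 FPKM (0.49, adjusted p = 6.96e-05). Neither passed after siKDM5C (4.6 ± 0.176 and 4.91 ± 0.0601 FPKM, adjusted p = 0.0844 and 0.314). Both differed between the knockdowns, by 0.71 (adjusted p = 3.09e-05) and 0.56 (adjusted p = 6.33e-05). After siKDM5C, 3 flippase genes rose, 2 fell and 5 did not pass (median 0.02, and −0.019 for all genes, of which 25.6% were called higher and 25.9% lower). The counts after siKDM5C are near these shares. Both counts include ATP10D, which 1 control library and all 6 knockdown libraries brought over the minimum.

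TMEM30A, the chaperone that most flippases need, rose in both, from 20.0 ± 0.693 FPKM to 30.4 ± 0.99 (0.58, limma adjusted p = 0.0019) and 35.1 ± 5.59 (0.77, adjusted p = 0.000396). ATP8B1, the flippase mutated in familial intrahepatic cholestasis, rose after siSIRT6 (0.28, adjusted p = 0.00769) and fell after siKDM5C (−0.3, adjusted p = 0.00464), with a difference of 0.58 (adjusted p = 0.000241) between them. ATP8B3 fell in both, by 0.26 and 0.31 on the log2 scale (adjusted p = 0.0169 and 0.00875), the first of which was lost on leaving out control replicate 2 (0.062), siSIRT6 replicate 1 (0.0585) or siSIRT6 replicate 3 (0.0636).

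XKR8 needs BSG or NPTN, its partner proteins, to reach the plasma membrane. BSG read 97.8 ± 7.94 FPKM in the controls, 116 ± 3.44 after siSIRT6 and 118 ± 12 after siKDM5C, and was called higher in both (0.25 and 0.27, limma adjusted p = 0.0384 and 0.0297), in the opposite direction to XKR8. NPTN read 39.1 ± 1.73, 35.7 ± 0.98 and 43.2 ± 1.24 FPKM, and was called higher after siKDM5C (0.14, adjusted p = 0.0447) and not after siSIRT6 (−0.13, adjusted p = 0.0622). These calls were close to the threshold. Those of BSG were lost in 6 alternatives each, at an adjusted p of up to 0.124, and that of NPTN in 10, at up to 0.13.

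Of the genes that make phosphatidylserine or turn it over, 2 of 3 fell after siSIRT6 (median −0.18) and 1 after siKDM5C (median −0.3), where 26.9% and 25.9% of all genes were called lower. PISD, which decarboxylates phosphatidylserine in mitochondria, fell from 11.8 ± 0.8 FPKM to 6.46 ± 0.341 after siSIRT6 (−0.78, limma adjusted p = 3.41e-05) and 9.38 ± 0.584 after siKDM5C (−0.3, adjusted p = 0.00561). The synthase PTDSS1 fell after siSIRT6 (−0.18, adjusted p = 0.0137), which was lost on leaving out control replicate 1 (0.0559) or siSIRT6 replicate 3 (0.06). The third gene is PTDSS2, the neighbour of ANO9 described above. ABCA1, which exports cholesterol and phospholipid, was the 1 of 3 ABC exporters tested that was called against control. Of all genes, 23.9% after siSIRT6 and 25.6% after siKDM5C were called higher. ABCA1 rose from 1.2 ± 0.0894 FPKM to 2.65 ± 0.125 (0.73, adjusted p = 2.97e-05) and 2.17 ± 0.109 (0.53, adjusted p = 0.00018).

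The scramblases of the endoplasmic reticulum and Golgi had 1 of 4 called higher after siSIRT6 (median 0.09), close to the 23.9% of all genes, and after siKDM5C the 4 lay near control at adjusted p of 0.39 to 0.977 in the limma fit (median 0.04). TMEM41B, which acts in autophagy and lipoprotein export, was the 1 called, at 28.0 ± 2.75 FPKM in the controls and 36.3 ± 0.603 after siSIRT6 (0.37, adjusted p = 0.029, lost in 5 alternatives at up to 0.0921). The TMEM63 and TMC genes, distant relatives of the anoctamins, were called higher in 2 of 5 cases after siSIRT6 (median 0.18, with 23.9% of all genes called higher), while 3 were higher and 1 lower after siKDM5C (median 0.32, with 25.6% and 25.9% of all genes). TMC7 rose from 4.24 ± 0.321 FPKM to 7.22 ± 0.29 and 7.14 ± 0.233 (0.65 and 0.64, adjusted p = 4.49e-05 and 5e-05). TMC5, which both counts include, read 0.364 ± 0.0589 FPKM in the controls, 0.983 ± 0.0781 after siSIRT6 and 1.11 ± 0.167 after siKDM5C. It reached the minimum only through knockdown libraries, so it was tested because it was high there and its p is not given.

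Chloride channels outside the anoctamins went both ways. Of 16 tested, 5 rose, 6 fell and 5 did not pass after siSIRT6 (median −0.15, and −0.045 for all genes, of which 23.9% were called higher and 26.9% lower). After siKDM5C, 3 rose, 7 fell and 6 did not pass (median −0.11, and −0.019 for all genes, of which 25.6% were called higher and 25.9% lower). The 7 include TTYH2, which reached the minimum only through control and siSIRT6 libraries, where it was higher. LRRC8A, the required subunit of the volume-regulated anion channel, rose from 5.52 ± 0.309 FPKM to 7.8 ± 0.324 (0.43, limma adjusted p = 0.000499) and 10.9 ± 0.637 (0.87, adjusted p = 1.14e-05). Its partner subunits went both ways. LRRC8B fell by 0.68 and 0.55 on the log2 scale (adjusted p = 0.00158 and 0.00487). LRRC8D also fell in both (−0.42 and −0.24, adjusted p = 0.0017 and 0.0239), the second lost in 5 alternatives at up to 0.0786. LRRC8E rose after siKDM5C (0.37, adjusted p = 0.00406) and did not pass after siSIRT6 (−0.16, adjusted p = 0.111). LRRC8C passed in neither. The intracellular transporters CLCN4 and CLCN6 fell in both, CLCN4 by 0.34 and 0.57 (adjusted p = 0.00184 and 0.000103) and CLCN6 by 0.45 and 0.46 (adjusted p = 0.000465 and 0.000409). Of their intracellular relatives, CLCN5 fell after siSIRT6 (−0.54, adjusted p = 0.000731). CLCN3 and CLCN7 rose there (0.22 and 0.4, adjusted p = 0.023 and 0.00472), the call of CLCN3 lost in 4 alternatives at up to 0.073. None of these relatives passed after siKDM5C. BEST1, a calcium-activated chloride channel of the retina, was called after siSIRT6 (121 ± 4.79 to 184 ± 4.37 FPKM), but its annotation overlaps the ferritin gene FTH1, so its reads are uncertain.

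Calcium opens ANO1 and ANO6, and 11 genes of calcium entry and release were looked up beside them. Of 9 tested, 4 rose and 5 did not pass after siSIRT6 (median 0.18), where 23.9% of all genes were called higher and 26.9% lower. After siKDM5C, 6 rose, 1 fell and 2 did not pass (median 0.24), where the shares of all genes were 25.6% and 25.9%. These counts include ITPR1, which 1 control library and all 6 knockdown libraries brought over the minimum. ITPR2, a calcium release channel of the endoplasmic reticulum, rose from 2.63 ± 0.117 FPKM to 5.08 ± 0.0946 (0.75, adjusted p = 4.07e-05) and 4.14 ± 0.423 (0.5, adjusted p = 0.000356). The calcium sensor STIM1 rose from 12.6 ± 0.244 FPKM to 17.6 ± 0.158 (0.45, adjusted p = 9.02e-05) and 15.1 ± 0.686 (0.24, adjusted p = 0.00295). ORAI2, a subunit of the entry channel that STIM1 opens, took the same order of groups as PLSCR1, at 6.32 ± 0.132 FPKM in the controls, 8.46 ± 0.382 after siSIRT6 (0.37, adjusted p = 0.000686) and 4.64 ± 0.28 after siKDM5C (−0.38, adjusted p = 0.000609). PIEZO1, a channel opened by membrane stretch, rose after siKDM5C from 16.6 ± 0.841 to 23.4 ± 2.47 FPKM (0.47, adjusted p = 0.000926) and read 15.6 ± 0.191 FPKM after siSIRT6 (adjusted p = 0.379).

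**Figure D5:**
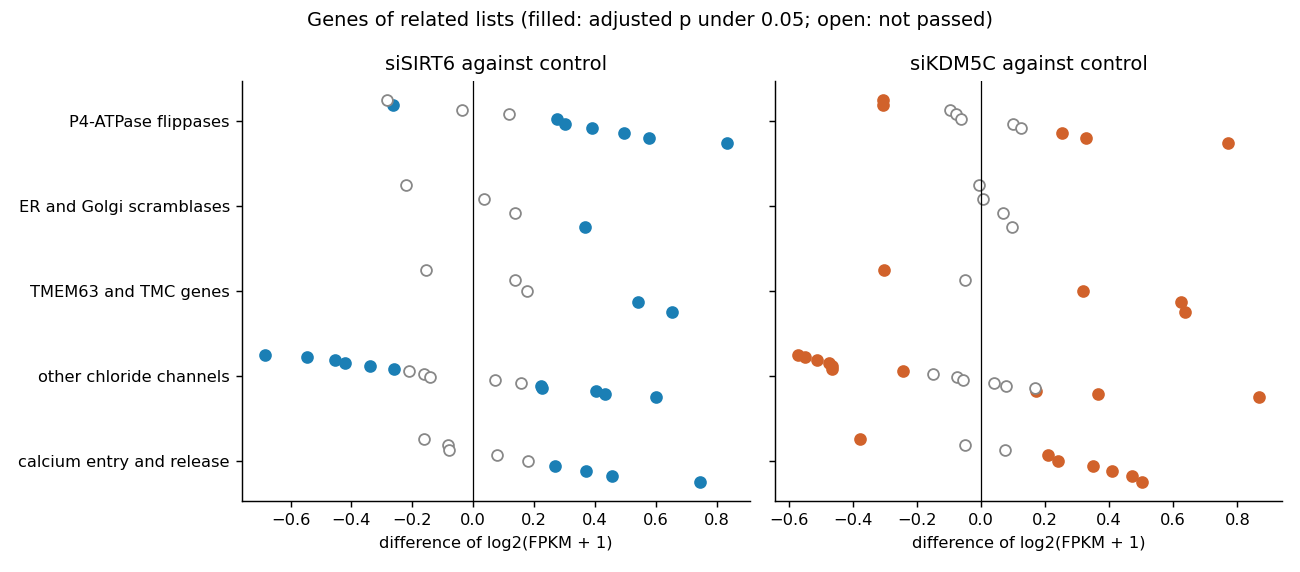
Differences of log2(FPKM + 1) from control (horizontal axes) for the tested genes of 5 related lists, with siSIRT6 on the left and siKDM5C on the right, filled where the adjusted p was under 0.05. After siSIRT6, 6 of 10 flippase genes are filled on the right of 0 and 1 on the left, and after siKDM5C 3 and 2. Of all genes, 23.9% were called higher and 26.9% lower after siSIRT6, and 25.6% and 25.9% after siKDM5C.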

How the data were processed

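Per the labels, total RNA went into a stranded mRNA library kit. Per the submitters' processing notes, the authors used Trimmomatic, HISAT2, Cufflinks and HTSeq with hg38, without versions or the part each played. The deposited FPKM values, made by the authors, are 1 value per library for 36753 Ensembl identifiers, with no pooling. The annotation and the strand of counting were not given in the sources used here. Symbols came from a gene name table (36659 matched) and GENCODE 29 (35564 matched), and coordinates from GENCODE 29.

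Low FPKM values are whole multiples of a step, so reads were recovered (tolerance 0.01 read), with the GENCODE exon union as length for 58.93% of genes and another fitted whole length for 41.07%, whose reads rest on that fit. They served for depths, for the floor of 3 reads and for alternative fits on log2 CPM. The main fit was limma 3.58.1 in R 4.3.3, with trend, on log2(FPKM + 1) fitted to all 9 libraries, 1 term per group. Genes needed 1 FPKM in 3 libraries. Tests are two-sided. Differences on that scale understate ratios of low genes. The script was tested on simulated data. Intervals are 95% and errors of FPKM are SD.

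Members and lists were chosen with earlier results of these data known. Named were the members, SIRT6 and KDM5C, the up to 3 genes per list with the smallest adjusted p among those past the threshold in each comparison, genes overlapping a member, protein-coding genes within 100 kb of ANO9, and the 5 genes of at least 5 FPKM most like ANO9. CD68 is the 1 other cell type marker tested. Genes named with values that did not pass, LRRC8B, LRRC8D, CLCN3, CLCN5, CLCN7 and BEST1's overlap were picked after their values were seen. Alternatives were a pseudocount of 0.1, no minimum or 5 FPKM, median-of-ratios scaling, a fit of the groups compared, a replicate block, recovered reads, and each library left out. A few genes named by it are not reported here.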

Additional observations from a re-analysis of the deposited data

Results flagged for a closer look

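ANO6, ANO8, ANO9 and PLSCR1 differed between siSIRT6 and siKDM5C by the limma test of that difference itself, which compares their changes against the same controls. On the log2(FPKM + 1) scale PLSCR1 was higher by 0.67 (adjusted p = 0.000114) after siSIRT6, with means of 7.45 and 4.33 FPKM and all 3 siSIRT6 libraries above all 3 siKDM5C libraries. ANO8 differed by −0.37 (adjusted p = 0.00994), with means of 3.53 and 4.85 FPKM and no overlap. ANO9 differed by 0.31 (adjusted p = 0.0279), at 1.57 and 1.08 FPKM with no overlap. ANO6 differed by 0.21 (adjusted p = 0.0413), at 31.9 and 27.6 FPKM, again with no overlap. Across all genes tested, 39.9% were called in this comparison, and the libraries did not overlap for 51.7%. The call of ANO6 was lost in 9 alternatives (adjusted p up to 0.114) and that of ANO9 in 5 (up to 0.0919).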

How the results depend on the processing

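The counts of genes called were 8194 after siSIRT6, 8308 after siKDM5C and 6442 between the knockdowns. They fell to 5367 and 5418 with at least 5 FPKM, which left 9446 genes to test. Leaving out 1 library gave 6698 to 8767, 6873 to 8324 and 4820 to 6873 genes. Of the members, 3 to 4, 3 and 2 to 4 were then called, where the full data gave 3, 3 and 4. The count of 2 came without siSIRT6 replicate 1, siSIRT6 replicate 2 or siKDM5C replicate 1. Of 351 refits of the 7 members tested, 325 kept direction and side of the threshold, 14 lost the call, 6 gained one and 6 turned direction. These refits and the member counts against control include ANO9, whose fall there chose the gene. The turns were all in differences that did not pass. For PLSCR3 they were 0.05 after siSIRT6 without control replicate 1, and after siKDM5C −0.12 without control replicate 2, −0.12 without control replicate 3, −0.02 without siKDM5C replicate 2 and −0.01 without siKDM5C replicate 3 (left-out ranges −0.31 to 0.05 and −0.12 to 0.25). For ANO8 after siKDM5C it was 0.03 without siKDM5C replicate 2. Of 2062 refits of 124 results of neighbours and list genes, 119 lost a call, in 24 results. Those that turned direction numbered 6, namely after siSIRT6 PKP3 (−0.06 without control replicate 3 and −0.00145 without siSIRT6 replicate 3, highest 0.06), PTDSS2 (0.03 with median-of-ratios scaling, 0.03 without control replicate 1 and 0.1 without siSIRT6 replicate 3, lowest −0.11) and HRAS (−0.05 without control replicate 3, highest 0.14). Of 9 pairs of libraries with the same replicate number, 1 deviated together with r over 0.1 (range −0.229 to 0.252). Pairs with different numbers ranged from −0.353 to 0.426. With 3 libraries per group this check cannot tell whether the numbers pair the samples. A fit with the replicate number as a block called 8130, 8245 and 6386 genes and the same numbers of members. Depth limits ANO5, at 1 to 4 reads, and ANO1 and ANO7, which lie under the minimum of the main fit.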
